A study of Mus musculus with 6 samples.

Results

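Mitochondrial ribosomal proteins are the proteins of the ribosome inside mitochondria, and their genes were compared here between livers in which hepatocytes received a guide RNA against Prdx2 and control livers. The genes were taken as all rows of the count table whose symbol begins with Mrpl or Mrps followed by a digit, without pseudogenes, which gave 78 of the 52459 genes counted. Of these, 77 were among the 17032 genes with enough counts to be tested, and Mrpl53 was not. By the position of the protein, 51 of the 78 genes belong to the large subunit and 26 to the small subunit. Of the 51, 29 were classed here as having a counterpart in the bacterial ribosome and 22 as found only in mitochondria. Of the 26, 16 and 10 were classed in this way. The classes are approximate, since Mrpl55, Mrps18a and Mrps18b were put with proteins found only in mitochondria although they have bacterial relatives. Mrps30 and Mrps18a were counted with the large subunit, where their proteins sit despite the small-subunit names. The last gene, Mrps36, was kept apart because its protein is a subunit of the 2-oxoglutarate dehydrogenase complex. The genes lie on 17 chromosomes, with 11 of the 78 on chromosome 11.

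The mitochondrial ribosome translates the few mRNAs of the mitochondrial genome, all of which encode subunits of the oxidative phosphorylation complexes. Its rRNAs are transcribed inside the mitochondrion, whereas all of its proteins are encoded in the nucleus, translated in the cytosol and imported. Hepatocytes are rich in mitochondria, so liver RNA holds abundant transcripts of this machinery.

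RNA-Seq had been performed on whole livers of 6 male mice at 8 months of age, 1 library per mouse. All 6 were Alb-Cre/Cas9 F1 animals of the C57BL6J strain, in which Cre under the albumin promoter turns on Cas9 in hepatocytes, and AAV8 vectors given intravenously at 4 to 5 weeks of age carried the guide RNA behind a U6 promoter. In 3 mice the vector was AAV8-U6-sgCtrl (sgCtrl, mice 5.1, 7.1 and 7.2) and in 3 it was AAV8-U6-sgPrdx2 (sgPrdx2, mice 1.1, 1.3 and 3.2). Both groups were given 100 mg/kg diethylnitrosamine (DEN), a liver carcinogen, by intraperitoneal injection 3 weeks after the vector, and 1 week later began 6 months of a choline-deficient high-fat diet (CDAHFD), so that neither group is healthy liver. Non-parenchymal cells and hepatocytes missed by the vector keep Prdx2, and their RNA is part of every library.

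The libraries held between 37462102 and 56865293 counts. Levels below are CPM, the counts of a gene divided by the library size in units of 1e+06 counts, with library sizes scaled by trimmed mean of M values (TMM). The TMM factors of the sgCtrl livers were 1.12 to 1.17 and those of the sgPrdx2 livers 0.805 to 0.951. Prdx2 RNA did not differ detectably, with 109, 117 and 132 CPM in sgCtrl and 99.0, 112 and 149 CPM in sgPrdx2 livers, at a log2 fold change of 0.0082 (SE 0.18), and an RNA level does not report on an edit of the reading frame. The sgPrdx2 library 3.2 stood apart from the other 5. Its log2 level fell by 0.21 for each doubling of transcript length across 16572 genes. The slopes were 0.072, 0.10 and 0.018 in sgCtrl livers 5.1, 7.1 and 7.2, and 0.0039 and 0.018 in sgPrdx2 livers 1.1 and 1.3. For each 10 percentage points of GC content the level in library 3.2 rose by 0.25, against slopes of -0.12 to -0.015 in the other libraries. The mitochondrial ribosomal transcripts are short, with a median of 1316 bases against 2708 bases over all tested genes with a length. The median GC content was 50.1% in both sets. Counts and medians over groups of genes are therefore also given below without library 3.2, which does not make the length slopes of the groups equal.

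Relative to the typical gene of these livers, the mitochondrial ribosomal protein genes stood higher in sgPrdx2 than in sgCtrl livers almost without exception, but by small amounts. The log2 fold change was above 0 for 76 of the 77 genes tested and ranged from -0.085 for Mrps6 to 0.76 for Mrpl12, with a median of 0.41 against -0.017 over all tested genes, 48.3% of which were above 0. Scaled to total counts instead, 45 of the 77 were above 0 and the median was 0.026, while that of all genes was -0.39. A change of scaling moves all genes by about the same amount, so a position relative to the typical gene is what these data give, and an absolute direction is not. Before any scaling between libraries the genes took 0.269%, 0.262% and 0.293% of all counts in sgCtrl livers and 0.256%, 0.263% and 0.335% in sgPrdx2 livers, and these shares overlapped.

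Tested one by one, a single gene passed. Mrpl18 was called higher in sgPrdx2 by edgeR's quasi-likelihood test at a Benjamini-Hochberg adjusted p under 0.05, a call made for 1.79% of all genes, and no mitochondrial ribosomal gene was called lower, against 1.54% of all genes. At an unadjusted p under 0.05, 40 of the 77 genes were higher and 0 lower, where 13% of all genes were higher. DESeq2 called 8 of the 77 higher (Mrpl12, Mrpl14, Mrpl18, Mrpl22, Mrpl49, Mrps24, Mrps35 and Mrps5) and 0 lower, where it called 7.58% of all genes higher. In 43 of the 77 genes every sgPrdx2 liver stood above every sgCtrl liver, and 16.7% of all genes did so. The genes share libraries and tend to move together across them, so these counts describe 3 livers against 3 and are not 77 separate pieces of evidence.

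**Figure D1:**
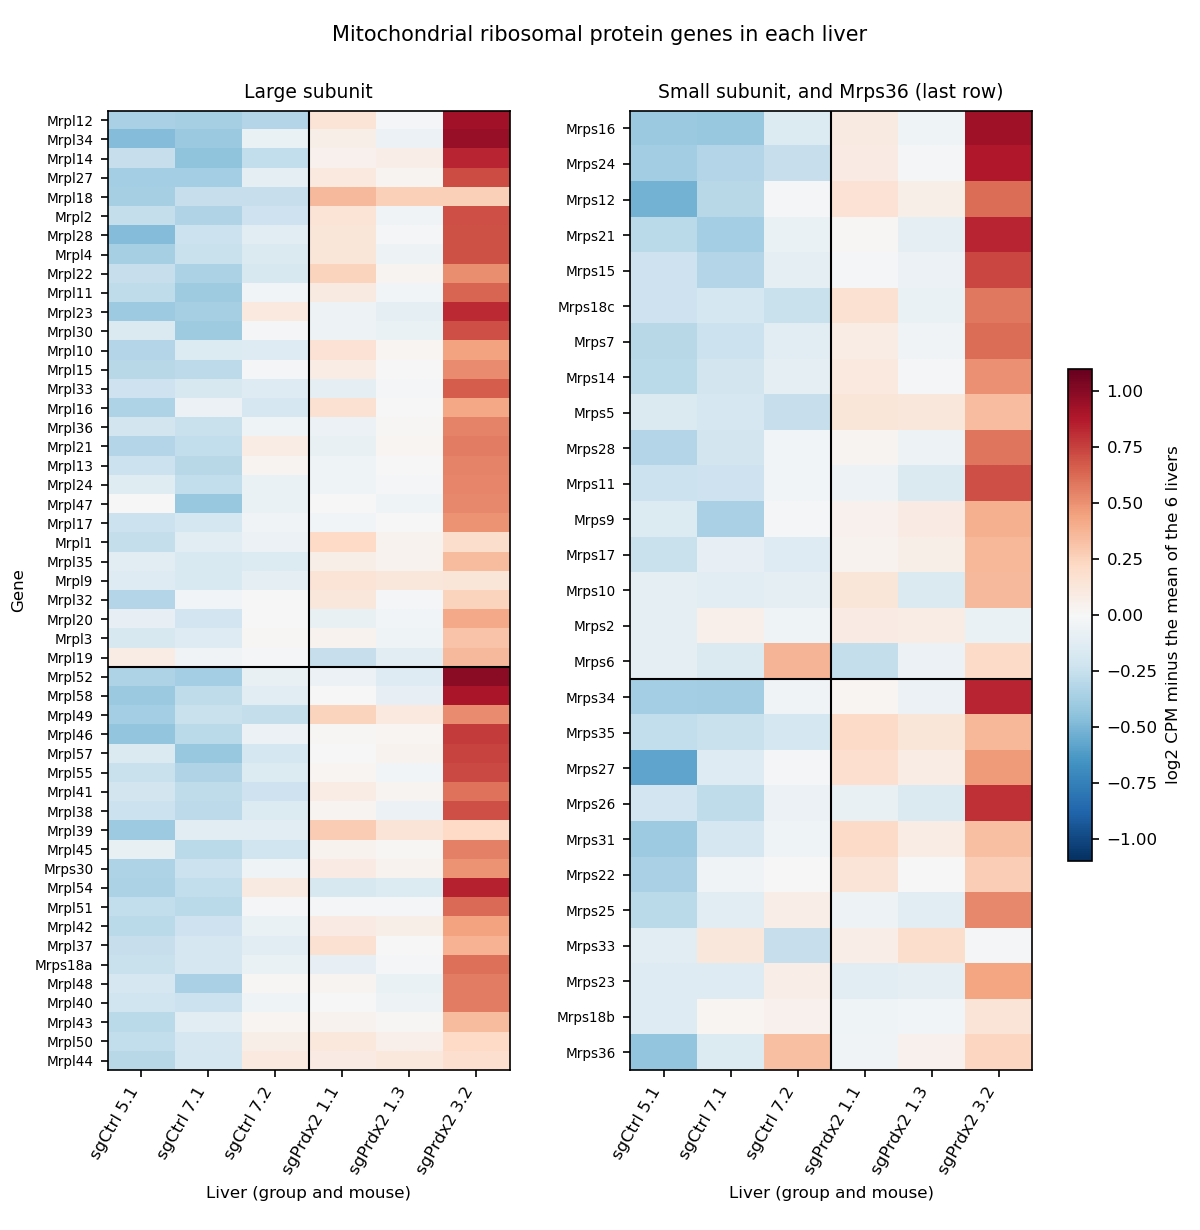
Level of each of the 77 tested genes in each liver, as log2 CPM (TMM) minus the mean of the 6 livers. Columns are livers, and the vertical line separates sgCtrl from sgPrdx2. The horizontal lines separate proteins classed with a bacterial counterpart (above) from those classed as found only in mitochondria (below). Liver 3.2 is the highest for 69 of the 77 genes, and livers 1.1 and 1.3 lie mostly above the sgCtrl livers; scaled to total counts alone, 45 of 77 genes have a fold change above 0.

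The height of the difference varied between the sgPrdx2 livers. Averaged over the 77 genes, log2 CPM relative to the mean of the 6 livers was -0.27, -0.23 and -0.073 in sgCtrl livers 5.1, 7.1 and 7.2, and 0.052, -0.0049 and 0.53 in sgPrdx2 livers 1.1, 1.3 and 3.2. All 3 sgPrdx2 livers were thus above all 3 sgCtrl livers, with liver 3.2 far above and livers 1.1 and 1.3 just above sgCtrl liver 7.2. Liver 3.2 was the highest of the 6 for 69 of the 77 genes, and for 30.0% of all genes. In liver 1.1, 57 of the 77 genes stood above every sgCtrl liver (31.2% of all genes), in liver 1.3 it was 49 (29.1%), and in liver 3.2 it was 73 (37.1%). The lowest liver was 5.1 for 43 genes and 7.1 for 28.

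Without library 3.2 the median log2 fold change was 0.23, with 73 of 77 genes above 0 and 31 higher at an unadjusted p under 0.05 (13.2% of all genes in that fit). There edgeR called Mrpl18 and Mrpl49 higher, 2 of 77 where 1.85% of all genes were called higher, a share near the background. An offset that removed the trend with transcript length from every library, chosen after seeing the data, left a median of 0.30 with all 6 livers and of 0.21 without library 3.2. With this offset, 71 of the 77 genes were above 0 with all 6 livers and 69 without library 3.2. An offset for length and GC left a median of 0.29 with all 6 livers. The part of the libraries' length and GC trends in what remained was not tested further.

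Mrpl18 encodes a protein of the central protuberance of the large subunit, related to bacterial L18. The gene lies at chr17:12911349-12916345 (GRCm38, minus strand). It measured 31.7, 34.4 and 34.2 CPM in sgCtrl livers 5.1, 7.1 and 7.2 and 52.5, 49.0 and 49.0 CPM in sgPrdx2 livers 1.1, 1.3 and 3.2. The groups did not overlap, and, unlike for most of the genes, liver 3.2 was not the highest. The means were 33.4 ± 1.52 and 50.2 ± 2.00 CPM (SD, n = 3 each), a log2 fold change of 0.58 (SE 0.11, edgeR adjusted p = 0.0409). The call was narrow. Leaving out sgCtrl liver 5.1, 7.1 or 7.2 gave an edgeR adjusted p of 0.130, 0.0748 or 0.162. Leaving out sgPrdx2 liver 1.1 or 1.3 gave 0.152 or 0.0843. The log2 fold changes were 0.55 to 0.62 throughout. Without liver 5.1, 7.2, 1.1 or 1.3 edgeR called 0 of all genes tested, so the loss of the call there is not particular to Mrpl18. Without library 3.2 the adjusted p was 0.0376 at a log2 fold change of 0.61, and in the length-corrected fit it was 0.0852 at a log2 fold change of 0.43. An overlap with Tcp1 covers 11.6% of the exon bases of Mrpl18, and Tcp1 itself had a log2 fold change of -0.052.

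Next by p-value came Mrpl49 and the others given here, in a ranking that itself favors a small spread within groups. Mrpl49, a large-subunit protein found only in mitochondria, measured 24.4, 26.8 and 26.5 CPM in sgCtrl and 37.5, 34.2 and 45.5 CPM in sgPrdx2 livers (log2 fold change 0.59, SE 0.14, edgeR adjusted p = 0.058). Mrps35, a mitochondria-specific protein of the small subunit, measured 20.7, 21.0 and 21.8 against 29.0, 27.4 and 32.2 CPM (0.48, SE 0.11, adjusted p = 0.0616). The groups did not overlap in either gene. Neither passed the edgeR threshold with TMM and the filter on low counts. Mrpl49 passed it without the filter (adjusted p = 0.0446), and both passed it in the length-corrected fit (adjusted p = 0.0457 and 0.0464). Mrps5, whose bacterial counterpart S5 bears on the accuracy of decoding, measured 26.8, 26.4 and 25.2 against 32.9, 32.7 and 38.1 CPM (0.40, adjusted p = 0.0905). Mrpl22, related to a protein that lines the exit tunnel for the nascent chain, measured 13.8, 12.9 and 14.6 against 19.5, 16.8 and 23.5 CPM (0.53, adjusted p = 0.0912), but 33.4% of its 50-base stretches are shared with another annotated gene. Mrpl39 and Mrps31, both mitochondria-specific, had log2 fold changes of 0.42 and 0.41 (adjusted p = 0.0974 and 0.121), again with no overlap between the groups.

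The largest fold changes were those of genes for which liver 3.2 was far above all others. Mrpl12, the stalk protein that recruits translation factors and also binds the mitochondrial RNA polymerase, measured 100, 99.5 and 102 CPM in sgCtrl livers and 142, 126 and 244 CPM in sgPrdx2 livers (0.76, SE 0.24, edgeR adjusted p = 0.114). Mrpl14, at the interface between the subunits, measured 45.05, 39.7 and 44.7 against 55.8, 56.7 and 96.0 CPM (0.69, adjusted p = 0.117). Mrps16, for which disease-causing mutations are known in humans, measured 23.8, 23.7 and 28.5 against 33.8, 30.6 and 60.4 CPM (0.71, adjusted p = 0.141). In each of these, livers 1.1 and 1.3 were above all sgCtrl livers by modest amounts, and without liver 3.2 the log2 fold changes were 0.43, 0.39 and 0.36. Mrpl34 had the same form, with 16.3, 17.1 and 21.65 CPM in sgCtrl and 23.8, 21.75 and 44.3 CPM in sgPrdx2 livers (0.70, or 0.32 without liver 3.2), so that livers 7.2 and 1.3 were all but level. Mrps24, related to bacterial S3, measured 28.8, 30.1 and 31.4 against 39.8, 36.9 and 69.2 CPM (0.69, or 0.36 without liver 3.2). For Mrpl27, a protein near the peptidyl transferase center, the log2 fold change was 0.60 (adjusted p = 0.125), or 0.36 without liver 3.2.

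**Figure D2:**
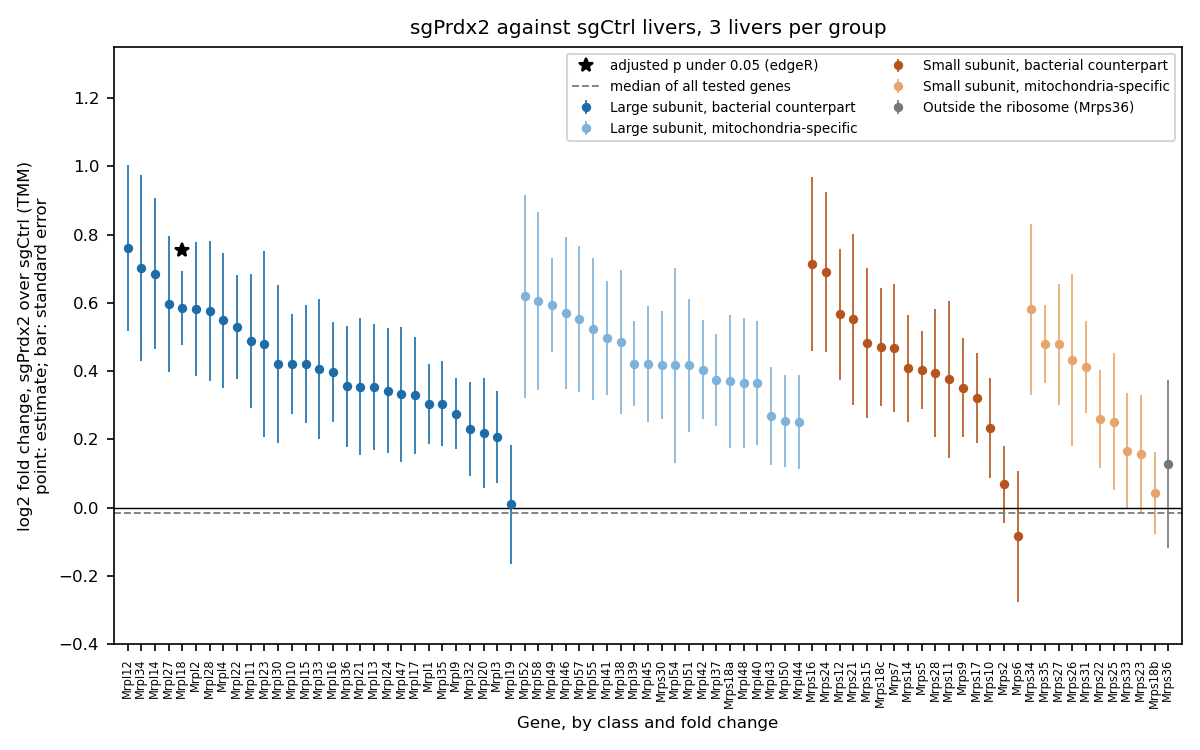
Log2 fold change of each tested gene, sgPrdx2 over sgCtrl (TMM), with its standard error as the bar, ordered within 5 classes; the star marks an adjusted p under 0.05 and the dashed line the median of all tested genes (-0.017). The points lie between -0.085 (Mrps6) and 0.76 (Mrpl12), and Mrpl18 alone carries a star; scaled to total counts, 45 of 77 are above 0.

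The classes of the ribosome had similar medians. The median log2 fold change was 0.42 over 50 tested large-subunit genes and 0.41 over 26 small-subunit genes. In 30 and 13 of them every sgPrdx2 liver stood above every sgCtrl liver, against 16.7% of all genes. Genes with a bacterial counterpart had a median of 0.41 (45 genes) and mitochondria-specific genes one of 0.42 (31 genes). The lowest class median was 0.34, for the 10 mitochondria-specific proteins of the small subunit, in which 3 of the 10 genes did not overlap. Without library 3.2 the medians were 0.23 for the large and 0.22 for the small subunit, 0.25 with a bacterial counterpart, 0.23 for mitochondria-specific genes and 0.21 for the 10 of the small subunit. These differences between classes were not tested, and the classes are approximate.

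Several of the genes lay close to 0, Mrps6, Mrpl19, Mrps18b and Mrps2. Mrps6 measured 11.6, 11.2 and 16.1 CPM in sgCtrl and 10.4, 11.9 and 14.4 CPM in sgPrdx2 livers (log2 fold change -0.085, SE 0.19), which turned to 0.10 without sgCtrl liver 7.2. Mrpl19 measured 15.9, 14.7 and 14.8 against 12.6, 13.9 and 19.3 CPM, Mrps18b 20.1, 22.5 and 22.9 against 21.5, 21.7 and 24.4 CPM, and Mrps2 31.0, 34.8 and 32.3 against 35.7, 35.4 and 31.8 CPM. In all 4 genes the groups overlapped, and the fold changes of 0.0095, 0.043 and 0.068 for the latter 3 were within their standard errors of 0.17, 0.12 and 0.11. Exons of Mrps6, Mrpl19 and Mrps18b overlap other annotated genes over 36.1%, 39.2% and 59.1% of their bases, whereas Mrps2 shares none. The other tested genes with an overlap above 36.1% were Mrps25 (75.6%), Mrps34 (62.7%), Mrpl24 (43.6%) and Mrpl33 (37%). Their log2 fold changes were 0.25, 0.58, 0.34 and 0.41. The part of overlap in any of these values was not tested. Mrps36, the dehydrogenase subunit, was also near 0 at 0.13 (SE 0.25), with 1.64, 2.00 and 2.80 against 2.16, 2.29 and 2.61 CPM, and 36.2% of its stretches occur in other genes.

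Genes with a known separate role or place in the ribosome spanned much of the range of fold changes. Mrpl10, at the base of the stalk that carries Mrpl12, had a log2 fold change of 0.42, and Mrps12, of the decoding center, one of 0.57. Mrpl58, a peptidyl-tRNA hydrolase that became a ribosomal protein, measured 31.5, 34.4 and 38.4 against 41.7, 39.3 and 77.8 CPM (0.61, edgeR adjusted p = 0.198). Mrpl44, which has an RNase III-like fold, had one of the smaller differences at 0.25, with 19.7, 21.3 and 26.3 against 25.9, 26.5 and 27.8 CPM and overlapping groups. The 3 related proteins Mrps18a, Mrps18b and Mrps18c, which take different places in the ribosome, had log2 fold changes of 0.37, 0.043 and 0.47, and Mrps30 one of 0.42.

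Levels differed far more between genes than between groups. Per kilobase of transcript, the mean level over the 6 livers ranged from 2.66 CPM for Mrps25 to 133 CPM for Mrpl52, 49.9-fold, with a median of 25.3 CPM. Mrpl52, Mrpl12 (103) and Mrpl14 (87.3) were the highest per kilobase, and Mrps25, Mrpl19 (3.04) and Mrps36 (3.21) the lowest of those tested. Mrpl52 measured 41.4, 40.4 and 49.3 against 49.97, 47.5 and 104 CPM, overlapping between groups, and Mrps25 measured 12.9, 14.5 and 16.7 against 15.2, 14.5 and 22.9 CPM. Transcript lengths for Mrps25 (6073 bases) and Mrpl19 (5000 bases) are long for this family, and the form used in liver was not measured. Exons of Mrps25 also overlap Nr2c2 over 75.6% of their bases, the largest share of any tested gene of the family, so its level is uncertain. Mrpl53, at 0.0926 CPM per kilobase and 1 to 5 counts per library, is fully covered by another annotated gene, so its count says little of its expression. The order of the genes was the same in both groups to a Spearman rho of 0.99 across 77 genes, which share libraries. Across the same 77 genes the log2 fold change went with the mean CPM (Pearson r 0.44, Spearman rho 0.34), with GC content (0.38 and 0.43) and, inversely, with transcript length (-0.23 and -0.27), as descriptions with no test.

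Of the 78 genes, 31 shared over 10% of their exon bases or 50-base stretches with another gene. Among the 47 tested genes that did not, all 47 had a log2 fold change above 0, with a median of 0.42. In 28 of them every sgPrdx2 liver stood above every sgCtrl liver, against 16.7% of all genes. At an unadjusted p under 0.05, 26 were higher, against 13% of all genes. By edgeR 0 of the 47 were called, where 1.79% of all genes were called higher. DESeq2 called 3 of the 47, where it called 7.58% of all genes higher, a share near the background. Without library 3.2, 46 of the 47 were above 0 and the median was 0.23.

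The start regions of the genes hold letters known as binding motifs of factors that act on nuclear genes for mitochondria. RefSeq windows from 250 bases before to 50 bases after the start were given for 69 of the 78 genes, and both strands were searched. In 63 of the 69 windows the bases after the start lie in the principal annotated transcript, and in the other 6 the start differs, so that motif positions there refer to another start. The NRF1 motif (GCGCANGCG) was in 23.2% of these windows, in 12.5% of the windows of all tested genes and in 6.46% of all windows. The ETS motif (CCGGAAG) was in 36.2%, 16.6% and 9.21%, and the YY1 motif (AANATGGCG) in 15.9%, 4.79% and 2.53%. In all, 42 of the 69 windows held at least 1 of the 3 motifs and 10 held 2. The CCAAT box (CCAAT) was no more frequent than elsewhere at 39.1% against 37.8% of tested genes, the Sp1 motif (GGGCGG) was at 47.8% against 61%, and the ERR motif (TNAAGGTCA) was in 0 of 69 windows against 0.765% of tested genes.

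Upstream stretches are printed for 4 of the genes described above with log2 fold changes from 0.53 to 0.76, to show starts with and without these letters. They are from RefSeq (GRCm38.p6), read 5′ to 3′ on the strand of the gene and free of annotated exons, with NRF1 and ETS motifs in capitals. They cover chr11:120484387-120484612 (+) for Mrpl12, chr11:58171414-58171660 (+) for Mrpl22, chr8:71464676-71464925 (+) for Mrpl34 and chr14:20393635-20393884 (-) for Mrps16.
Mrpl12: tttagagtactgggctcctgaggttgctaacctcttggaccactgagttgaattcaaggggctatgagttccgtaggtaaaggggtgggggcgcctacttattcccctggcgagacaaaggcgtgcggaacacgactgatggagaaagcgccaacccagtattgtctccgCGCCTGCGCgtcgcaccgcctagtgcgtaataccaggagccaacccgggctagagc
Mrpl22: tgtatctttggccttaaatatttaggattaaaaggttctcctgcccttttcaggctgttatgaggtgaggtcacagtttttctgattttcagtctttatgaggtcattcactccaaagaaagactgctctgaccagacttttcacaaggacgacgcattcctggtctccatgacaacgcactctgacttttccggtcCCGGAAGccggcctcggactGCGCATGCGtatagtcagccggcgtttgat
Mrpl34: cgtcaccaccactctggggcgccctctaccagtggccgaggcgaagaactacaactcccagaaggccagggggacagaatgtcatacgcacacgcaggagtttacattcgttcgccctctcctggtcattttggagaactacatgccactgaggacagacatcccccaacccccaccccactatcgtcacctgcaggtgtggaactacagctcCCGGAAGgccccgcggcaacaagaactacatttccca
Mrps16: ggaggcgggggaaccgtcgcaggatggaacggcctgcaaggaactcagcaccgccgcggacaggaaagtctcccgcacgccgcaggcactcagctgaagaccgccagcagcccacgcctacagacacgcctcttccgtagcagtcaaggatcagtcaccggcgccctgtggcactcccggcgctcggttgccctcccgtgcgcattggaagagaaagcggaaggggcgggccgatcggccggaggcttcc
In Mrpl12 an NRF1 motif begins at -80 from the start, on the opposite strand. Mrpl22 has an ETS motif at -53 and an NRF1 motif at -33, Mrpl34 has an ETS motif at -37, and Mrps16 has none of the 3 motifs in its window. For Mrpl34 the position refers to the RefSeq start, since the annotated gene begins further downstream, at chr8:71464959. Genes with and without these letters had close medians. The median log2 fold change was 0.42 in 16 genes with an NRF1 motif and 0.40 in 52 without, 0.42 in 24 genes with an ETS motif and 0.40 in 44 without, and 0.40 in 11 genes with a YY1 motif and 0.41 in 57 without. Without library 3.2 these were 0.24 and 0.22 (NRF1), 0.19 and 0.25 (ETS), and 0.27 and 0.22 (YY1). A match describes letters in a window and not binding.

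Many of these genes begin head to head with another gene, whose transcript leaves the same start region on the other strand. A protein-coding start within 1000 bases was annotated for 28 of the 78 genes, and 25 such neighbors outside the family were tested. Their median log2 fold change was 0.084, against 0.42 for the 25 mitochondrial ribosomal genes facing them, and the latter was the higher in 22 of 25 pairs. By edgeR 0 of the 25 neighbors were called and by DESeq2 2, where these called 1.79% and 7.58% of all genes higher. At an unadjusted p under 0.05, 6 were higher and 1 lower, where 13% of all genes were higher. In 5 of the 25 every sgPrdx2 liver stood above every sgCtrl liver, as in 16.7% of all genes, and none stood below. Without library 3.2 the medians were 0.048 and 0.25, and the mitochondrial ribosomal gene was the higher in 20 of 25 pairs. Mrpl18 and Tcp1, whose starts lie 37 bases apart, had values of 0.58 and -0.052, and Mrpl27 and the nuclease gene Eme1 had 0.60 and -0.46 (SE 0.32 for Eme1). In the 3 remaining pairs the neighbor was the higher, and among them were Mrpl10 with Lrrc46 (0.42 and 0.73) and Mrpl47 with Ndufb5 (0.33 and 0.62), a subunit of complex I. Mrpl46 and Mrps11, with starts 30 bases apart, face each other and had 0.57 and 0.38.

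**Figure D3:**
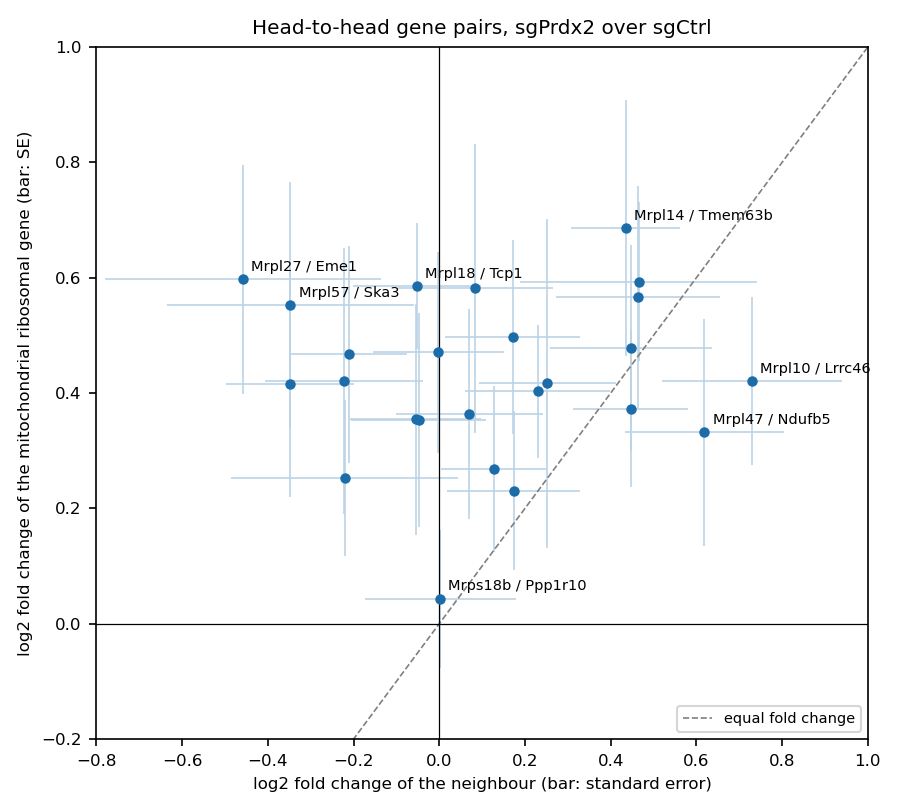
Log2 fold change (sgPrdx2 over sgCtrl, TMM) of the mitochondrial ribosomal gene on the vertical axis and of its head-to-head protein-coding neighbor on the horizontal axis, 1 point per pair with standard errors as bars; the dashed line marks equal values. Of the 25 pairs, 22 lie above the line.

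The same comparison was made for the rest of the mitochondrial translation machinery. The 5 mitoribosomal proteins with other names (Dap3, Ptcd3, Chchd1, Aurkaip1 and Gadd45gip1) had a median log2 fold change of 0.50, and 0 of 5 were called. Dap3, a GTP-binding small-subunit protein, measured 46.6, 47.6 and 52.7 CPM in sgCtrl and 59.4, 59.4 and 73.6 CPM in sgPrdx2 livers (0.39, edgeR adjusted p = 0.138), while Ptcd3 was at 0.011. Among 12 translation factors 0 were called, with a median of 0.35, all 12 above 0 and 8 without overlap (16.7% of all genes). Of these, Mtrf1, of the release factor family, measured 6.65, 8.32 and 7.91 against 10.8, 10.8 and 11.3 CPM (0.53, adjusted p = 0.0795), a difference that did not rest on liver 3.2, and the initiation factor Mtif3 had 0.53 (adjusted p = 0.0908). Of 24 factors for assembly and rRNA modification 0 were called (median 0.27). Their values ran from -0.055 to 0.63, the highest for the rRNA methyltransferase gene Mrm2, with 2 below 0. Of 20 genes for aminoacyl-tRNA synthesis 0 were called (median 0.32), with 0.48 for Vars2 and 0.47 for Gatb. Values in this list ran from -0.24 to 0.75, with 2 below 0. At an unadjusted p under 0.05, the 4 lists had 3, 6, 8 and 10 genes higher and 0 lower, and DESeq2 called 1, 2, 0 and 4. Of all genes, 13% were higher at that p, edgeR called 1.79% higher and DESeq2 7.58%. Without library 3.2 the 4 medians were 0.28, 0.28, 0.24 and 0.22, again with 0 called by edgeR, where 1.85% of all genes were called higher.

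Of 15 genes for mitochondrial transcription and RNA processing, 1 was called by edgeR, where 1.79% of all genes were called higher. It was Hsd17b10, a subunit of mitochondrial RNase P. Its levels were 83.7, 79.1 and 83.0 against 130, 121 and 172 CPM (0.78, SE 0.16, edgeR adjusted p = 0.0471). The list median was 0.21 (0.18 without library 3.2). Tfam, which packages mitochondrial DNA and starts its transcription, had 0.28 (adjusted p = 0.155).

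The transcripts that the mitochondrial ribosome translates showed a larger difference, of another form across livers. Of 12 mitochondrially encoded mRNAs tested, 4 were called higher (mt-Co3, mt-Nd6, mt-Nd4 and mt-Cytb), where 1.79% of all genes were, and 0 lower. The median log2 fold change was 0.84. The apocytochrome b mRNA mt-Cytb measured 4585, 6749 and 6167 CPM in sgCtrl and 10750, 11588 and 10554 CPM in sgPrdx2 livers (0.91, adjusted p = 0.0491). Averaged over the 12 mRNAs, relative log2 levels were -0.54, -0.26 and -0.38 in sgCtrl and 0.44, 0.40 and 0.35 in sgPrdx2 livers, so that here liver 3.2 was the lowest of its group. Without library 3.2, the median over 13 tested mRNAs was 0.82 and 2 were called, where 1.85% of all genes were called higher. The mitochondrial rRNAs mt-Rnr1 and mt-Rnr2, with log2 fold changes of 0.17 and 0.31, overlapped between groups. Some mRNAs, such as mt-Co3 at 4.47 to 10.3 CPM, lie far below their neighbors on the same genome, and copies in the nuclear genome were not checked for shared reads.

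For the cytosolic ribosome, the sign of the difference depended on library 3.2. Of 86 tested genes for its proteins, 75 had a log2 fold change above 0 and the median was 0.16. By edgeR 0 were called, where 1.79% of all genes were called higher and 1.54% lower. In 2 the sgPrdx2 livers were all above the sgCtrl livers, against 16.7% of all genes. Without library 3.2, 7 of 87 tested genes were above 0 and the median was -0.15, where 73 of the 77 mitochondrial ribosomal genes were above 0. The average relative log2 level of the cytosolic ribosomal genes was 0.62 in liver 3.2 but -0.28 and -0.17 in livers 1.1 and 1.3, within the range of the sgCtrl livers (-0.33 to 0.17). For the mitochondrial ribosomal genes, livers 1.1 and 1.3 (0.052 and -0.0049) were above the range of those genes in the sgCtrl livers (-0.27 to -0.073). At an unadjusted p under 0.05, 2 of the 86 were higher and 0 lower, where 13% of all genes were higher. DESeq2 called 0 of the 86, where it called 7.58% of all genes higher.

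**Figure D4:**
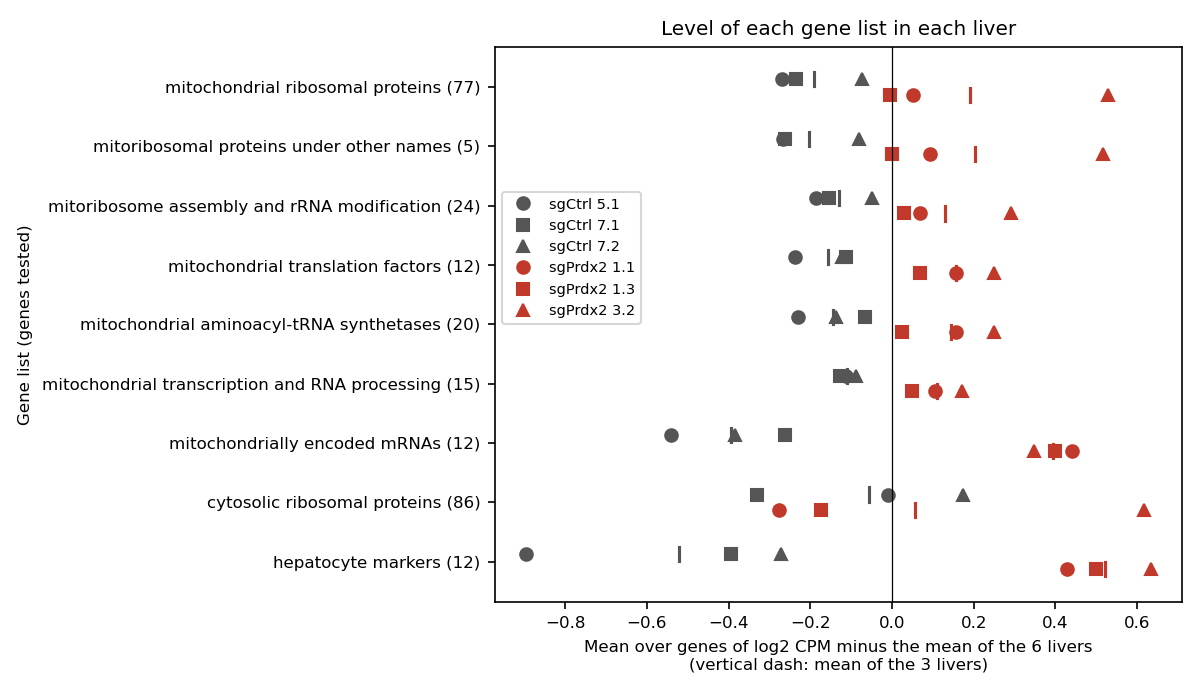
Mean over the genes of each list of log2 CPM (TMM) relative to the mean of the 6 livers, 1 symbol per liver (grey sgCtrl, red sgPrdx2) with the mean of the 3 livers as a vertical dash; the number of genes is in parentheses. In the 7 mitochondrial lists drawn here (the mitochondrial rRNAs are not among them) the groups do not overlap, whereas for cytosolic ribosomal proteins livers 1.1 (-0.28) and 1.3 (-0.17) lie among the sgCtrl livers and liver 3.2 (0.62) stands apart.

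Markers of hepatocytes moved in the same direction as these genes. Of 12 hepatocyte markers 7 were called higher, where 1.79% of all genes were, and 0 lower. Their median log2 fold change was 1.06. Without library 3.2 it was 0.96 and 4 were called higher, where 1.85% of all genes were. Apoh and Ttr had the smallest p. The summed level of the 12 markers was 82973 to 88250 CPM in sgCtrl and 141960 to 189417 CPM in sgPrdx2 livers. Summed levels of the 11 macrophage markers were 4074 to 4755 against 2726 to 3536 CPM. For the 7 stellate cell and fibroblast markers they were 1745 to 1967 against 1261 to 1304 CPM. For the 6 cholangiocyte markers they were 1630 to 1858 against 1217 to 1393 CPM. Of the macrophage markers, Gpnmb and Mpeg1 were called lower, where 1.54% of all genes were called lower. The 9 lymphocyte markers summed to 89.99 to 105.2 against 50.89 to 74.999 CPM with Cd8a called lower, whereas the 6 endothelial markers, with Pecam1 called lower, and the 4 tested neutrophil markers overlapped in sum, and the neutrophil marker Ly6g was at or near 0 in every liver. By the mean relative log2 level instead, the lymphocyte markers overlapped (-0.044 to 0.27 in sgCtrl against -0.32 to 0.096 in sgPrdx2 livers). The endothelial markers did not (0.14 to 0.35 against -0.76 to 0.019). Whether these lists overlapped thus depended on the measure. In whole-liver RNA, fewer cells of a type and less RNA per cell cannot be told apart, and the part of cell composition in the difference of the mitochondrial ribosomal genes was not tested.

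The median over the 77 genes minus that over all genes was 0.43 with TMM. Other scalings gave 0.40 to 0.43, which follows from shifting all genes together and is no check of the difference. It was 0.24 without library 3.2, from 0.37 to 0.54 when any other liver was left out, and 0.29 and 0.28 with offsets for length or for length and GC.

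**Figure D5:**
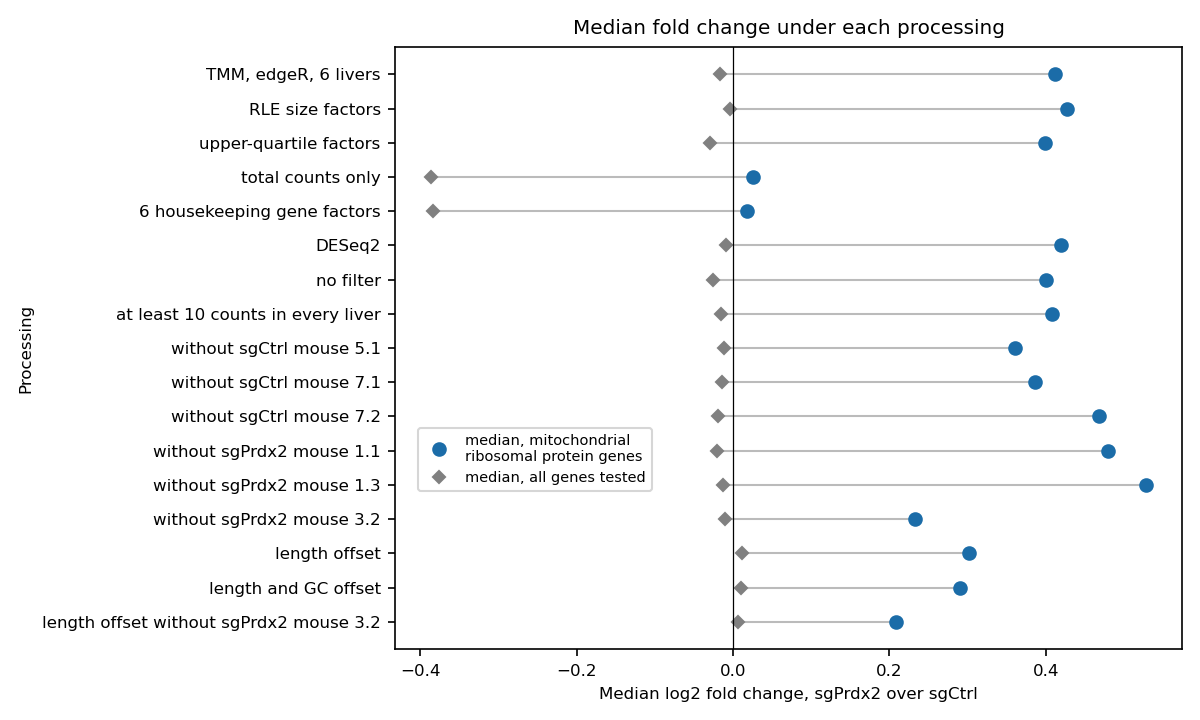
Median log2 fold change (sgPrdx2 over sgCtrl) of the mitochondrial ribosomal genes (circles) and of all genes tested (diamonds) under each processing. The circles lie to the right of the diamonds throughout, but at 0.026 and 0.017 with total counts or factors from 6 housekeeping genes, where the median of all genes is -0.39 and -0.38.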

How the data were processed

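RNA-Seq of 6 livers was analysed, 3 sgCtrl and 3 sgPrdx2, grouped by the guide RNA in the sample labels. The authors deposited whole-number counts of reads per gene and liver for 52459 genes, without normalization. The submitters' processing notes name HISAT2, HTSeq, DESeq2 and the build GRCm38, while versions, annotation and strandedness are not given in the sources used here. A second deposited table holds the authors' DESeq2 comparison (mean, fold change and p-values per gene) and was not used.

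The analysis used edgeR 4.0.16 under R 4.3.3. The filter filterByExpr (minimum count 10) left 17032 genes, whose counts were normalized by TMM and compared by the quasi-likelihood test with all 6 livers and no covariate. Adjusted p-values (Benjamini-Hochberg) were taken over all tested genes, with a threshold of 0.05. edgeR estimated a biological coefficient of variation of 0.213. The SE of a log2 fold change was taken as its size over the root of the F statistic. The fits were tested on simulated data. Total counts were 37462102 to 56865293 per liver, at which 3 counts, taken as the floor, correspond to 0.0555 to 0.0921 CPM. DESeq2 was version 1.42.0.

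The genes and lists were chosen with earlier results of these data known. Among the mitochondrial ribosomal genes the text names those called, the 10 with the smallest p, the 5 largest and 5 smallest fold changes, the 3 highest and 3 lowest levels per length, any with a fold change of the opposite sign or not tested, and those with a known separate role. Of the other lists it names called genes and up to 3 with the smallest p, and the neighbor pairs, Ptcd3, Ly6g, Mrps34, Mrpl24 and Mrpl33 were picked after their values were seen. Positions, principal transcript lengths (known for 97.3% of tested genes), exon overlaps and shared 50-base stretches came from the GENCODE M21 annotation of GRCm38, possibly not the annotation behind the counts, and upstream sequences from RefSeq. With unknown strandedness, reads of overlapping genes cannot be told apart. Alternatives were RLE and upper-quartile factors, total counts alone, factors from 6 housekeeping genes of a liver signature assay, DESeq2, no filter, at least 10 counts in every liver, leaving out each liver, and offsets for transcript length or length and GC. The labels give no batch.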

Additional observations from a re-analysis of the deposited data

How the results depend on the processing

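Of the alternatives, scaling decided the absolute direction. With total counts alone, 0 genes were called, 45 were above 0, the median was 0.026 and 4 did not overlap (4.33% of all genes), and with factors from 6 housekeeping genes these were 0, 42, 0.017 and 4 (3.95%). Under these 2 scalings 7 named genes turned negative: Mrpl19 (-0.38 and -0.39), Mrps18b (-0.33 and -0.33), Mrps2 (-0.30 and -0.29), Mrps36 (-0.24 and -0.24), Mrps25 (-0.13 and -0.14), Mrpl44 (-0.12 and -0.11) and Mrps18a (-0.019 and -0.033), and Mrpl18 was not called (0.22 in both). DESeq2 called 8 genes, and edgeR without a filter called 2, Mrpl18 and Mrpl49 (2.25% of all genes higher). The length offset and the length and GC offset, added after seeing the data as was the length offset without library 3.2, left 71 and 73 of 77 genes above 0. With either, edgeR called 2 of 77, Mrpl49 and Mrps35, where it called 2.87% and 3.68% of all genes higher. Among the named genes, Mrps18b (-0.14 and -0.14) and Mrps36 (-0.091 and -0.057) turned negative. The length offset without library 3.2 left 69 of 77 genes above 0 and called Mrpl18 (1.07% of all genes higher). Among the named genes, Mrpl19 was at -0.12, Mrps18b at -0.079 and Mrps36 at -0.023 there. Mrpl19 was also negative with upper-quartile factors (-0.0035) and without a filter (-0.0030).

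Leaving out each liver gave 0 to 2 calls, 73 to 77 genes above 0, a median of 0.23 (without 3.2) to 0.53 (without 1.3), 11 (without 5.1) to 49 genes at an unadjusted p under 0.05, and 44 to 69 genes without overlap (69 without 7.2, where 21.4% of all genes did not overlap). Without liver 5.1, 7.2, 1.1 or 1.3 edgeR called 0 genes of all those tested, so that the loss of Mrpl18 there is shared with every other call, while without 7.1 it called 394 and without 3.2 it called 619. Signs turned for Mrps18b and Mrps36 without 5.1 (-0.014 and -0.032), Mrpl19 without 7.1 (-0.012), Mrps6 and Mrpl19 without 7.2 (0.10 and -0.0049), Mrps6 without 1.1 (0.019), and Mrpl19 and Mrps18b without 3.2 (-0.18 and -0.0053). The causes were not tested. No paired analysis was possible because the groups share no replicate numbers. With 3 livers per group, differences near 0.4 on the log2 scale mostly stayed under the threshold.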

Other observations

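The 6 housekeeping genes used for scaling were themselves mostly higher relative to the typical gene, with 5 of 6 log2 fold changes above 0 and a median of 0.43. By edgeR 0 were called and by DESeq2 3, where these called 1.79% and 7.58% of all genes higher. At an unadjusted p under 0.05, 3 were higher, where 13% of all genes were. Among the 6, Atp5b, Cox8a and Ndufa2 encode subunits of oxidative phosphorylation complexes, with log2 fold changes of 0.45, 0.65 and 0.68. The genes Hint1, Bag6 and Hnrnpa2b1 had 0.42, 0.26 and -0.065.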
